A study of Mus musculus with 16 samples.

Results

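Expression of 7 genes of the TREM2 signalling pathway was followed in mouse hippocampus across 4 genotypes that cross a tau transgene with loss of cholesterol 25-hydroxylase. The genes were Trem2, Tyrobp, Syk, Plcg2, Inpp5d, Abi3 and Ptk2b, taken by symbol from the 55487 genes of the series, and each was found as 1 gene. All 7 passed the filter on low counts. The RNA was from the right hippocampus of females at 40 weeks of age, and each genotype had 4 libraries. TCKO mice carried the PS19 transgene, which expresses human 1N4R tau with the P301S mutation of familial frontotemporal dementia from the prion protein promoter, and were Ch25h knockouts. T mice carried the PS19 transgene with Ch25h intact, CKO mice lacked Ch25h without the transgene, and WT mice had neither change. The product of Ch25h is the enzyme that converts cholesterol to 25-hydroxycholesterol. The transgene promoter is not restricted to microglia, and no Cre driver or cell type for the Ch25h deletion is named in the labels.

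TREM2 is a lipid-sensing receptor on the surface of microglia, the resident macrophages of the brain. It has no signalling tail of its own and pairs with the adaptor TYROBP (DAP12), whose phosphorylated tyrosine motif recruits the kinase SYK. SYK acts on phospholipase C gamma 2 (PLCG2) and on phosphoinositide 3-kinase, while the phosphatase SHIP1, encoded by Inpp5d, removes a phosphate from the lipid product of that kinase and so restrains the pathway. ABI3 belongs to a family of regulators of the actin cytoskeleton, and PTK2B (PYK2) is a calcium-sensitive tyrosine kinase that forebrain neurons express strongly. In human genetics TREM2, PLCG2, INPP5D, ABI3 and PTK2B are associated with the risk of Alzheimer disease.

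Library totals ran from 15064309 to 34348284 estimated reads. Reads of Ch25h, the deleted gene, numbered 0 to 1 per TCKO library, 133 to 299.6 per T library, 0 to 2 per CKO library and 18 to 39.7 per WT library. Levels are given as CPM, reads scaled to a common library total with TMM factors, and, to set genes side by side, as TPM, which also divides by transcript length. Fold changes are log2 values ± SE with 4 libraries per genotype and adjusted p-values over 18565 genes from edgeR's quasi-likelihood test, with a threshold of 0.05. Replicates carry numbers in the labels, with no statement that each is another mouse, so the spread behind a p-value is that between libraries. T replicate 4 and WT replicate 1 stood apart in 8 choroid plexus genes, with summed levels of 7752 and 7383 CPM against 441.5 CPM or less in the other libraries. All 12 homeostatic microglia genes and all 12 broader myeloid genes listed as markers were detected in every genotype.

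Promoters of 4 of the 7 genes (Trem2, Syk, Plcg2 and Inpp5d) were in the RefSeq set for GRCm38.p6, which spans 250 bases before to 50 bases after each start. Those of Trem2, the receptor, and of Inpp5d, which encodes an inhibitor downstream of it, are shown. Both genes rose in T against WT and fell in TCKO against T. So did Plcg2, whose promoter is not shown and held no match to the motif marked here. Capitals mark GAGGAA, the core of the site bound by PU.1 (Spi1), a transcription factor that specifies macrophages, or its reverse complement TTCCTC.
Trem2, chr17:48346151-48346450, plus strand: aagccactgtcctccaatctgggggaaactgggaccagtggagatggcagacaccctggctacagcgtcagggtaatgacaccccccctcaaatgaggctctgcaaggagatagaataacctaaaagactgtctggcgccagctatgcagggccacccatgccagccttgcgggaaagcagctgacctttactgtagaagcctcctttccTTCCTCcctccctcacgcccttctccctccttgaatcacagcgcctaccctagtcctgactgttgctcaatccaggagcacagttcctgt
Inpp5d, chr1:87620062-87620361, plus strand: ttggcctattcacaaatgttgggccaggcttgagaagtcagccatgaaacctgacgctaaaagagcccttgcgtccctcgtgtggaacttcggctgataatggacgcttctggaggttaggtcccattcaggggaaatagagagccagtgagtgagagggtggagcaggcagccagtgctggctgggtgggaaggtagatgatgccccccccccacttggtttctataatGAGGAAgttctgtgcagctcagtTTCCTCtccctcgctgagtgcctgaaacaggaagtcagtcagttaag
On both strands together, the Inpp5d promoter held this motif in 2 places, and the Trem2 promoter and 1 of the 2 Syk promoters held it in 1 place each. The other Syk promoter and the Plcg2 promoter held none. GAGGAA occurred in 28.3% of all 32851 promoters of the same length. Neither GAAA followed by any 2 bases and GAAA, the core of the interferon-stimulated response element (3.44% of promoters), nor TTCNNNGAA, a STAT palindrome (8.3%), occurred in the promoters of these genes. A match describes letters in the window and does not show binding.

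The tau transgene with Ch25h intact was accompanied by higher levels of 6 of the 7 genes, and loss of Ch25h in transgenic mice by lower levels of 5 of those 6. In T against WT, Trem2, Tyrobp, Syk, Plcg2, Inpp5d and Abi3 rose, none fell, and Ptk2b did not pass. Over all 18565 genes, 13% rose and 11.2% fell. The median log2 fold change of the 7 genes was 1.66, beside -0.01 over all genes. In 5 of the 7 every T library was above every WT library, as for 13.3% of all genes. In TCKO against T, 5 of the 7 genes fell (Trem2, Tyrobp, Plcg2, Inpp5d and Abi3), Ptk2b rose, and Syk did not pass, where 8.05% of all genes fell and 4.81% rose. In each of these 6 genes the TCKO and T libraries did not overlap, as for 9.65% of all genes with TCKO lower and 5.14% with TCKO higher. The median of the 7 was -1.31, beside 0.02 over all genes. These comparisons share the T libraries, so each is given by its own values. In bulk tissue, fewer cells of a type and less RNA per cell cannot be told apart.

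**Figure D1:**
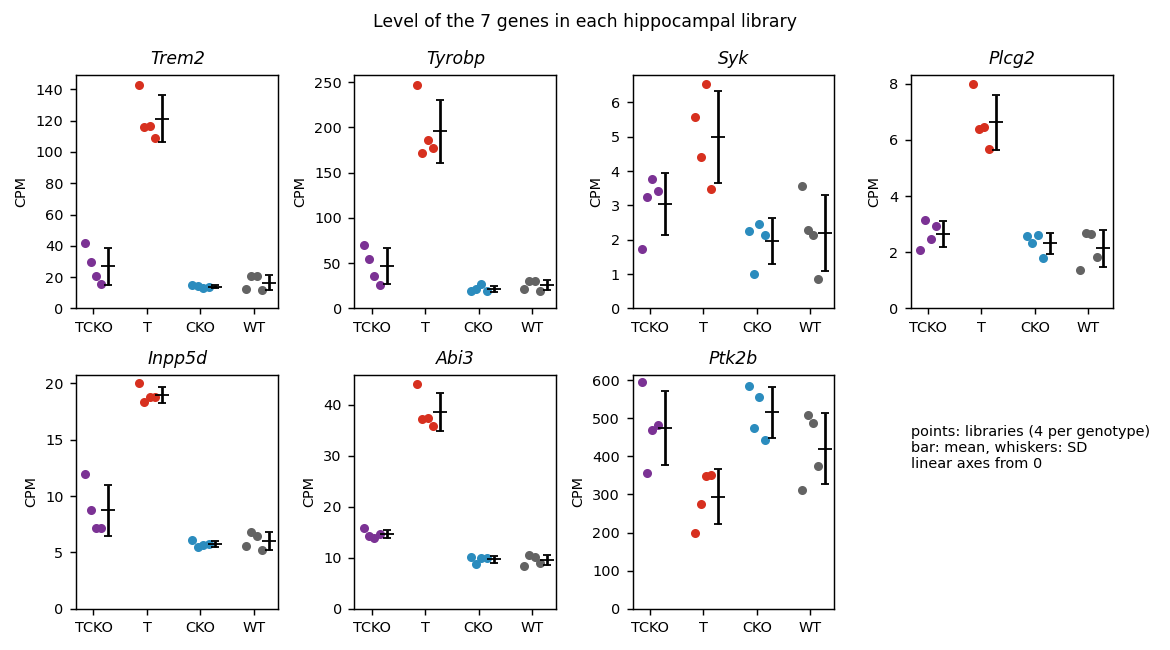
Level in CPM of each gene in every library, by genotype, on linear axes; points are libraries, with the mean and SD (n = 4). The T libraries lie above those of the other 3 genotypes for Trem2, Tyrobp, Plcg2, Inpp5d and Abi3, while for Ptk2b they include the lowest values.

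Trem2 (ENSMUSG00000023992, GRCm38 chromosome 17, 48346401 to 48354147, plus strand), the receptor, had 143, 116, 117 and 109 CPM in T replicates 2, 3, 4 and 5, against 12.5, 20.5, 21.03 and 12.04 CPM in WT replicates 1, 2, 4 and 5. All T libraries were far above all WT libraries. Trem2 rose by 2.87 ± 0.26 in T against WT, a 7.33-fold higher level (adjusted p = 1.64e-06), and ranked 280 among all 18565 genes by fold change. The TCKO libraries, replicates 2 to 5 in order, held 41.98, 29.4, 20.6 and 15.5 CPM of Trem2. The CKO libraries, replicates 1, 2, 4 and 5, held 14.8, 14.3, 13.3 and 13.4 CPM. All TCKO libraries were below all T libraries, but they spread widely, and TCKO replicates 4 and 5 lay within the range of WT. Trem2 fell by 2.17 ± 0.25 on the log2 scale in TCKO against T, a 4.51-fold lower level (adjusted p = 4.28e-05).

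Tyrobp (ENSMUSG00000030579, chromosome 7, 30413760 to 30417585, plus strand), the adaptor that carries the signal of TREM2 and of several other myeloid receptors, had 247, 172, 186 and 177 CPM in the T libraries, against 21.98, 30.04, 30.7 and 19.7 CPM in the WT libraries, in the same order of replicates. T replicate 2 was the highest library for both the receptor and its adaptor. Tyrobp rose by 2.93 ± 0.26 in T against WT (7.63-fold, adjusted p = 1.52e-06). The TCKO libraries held 70.6, 55.2, 36.1 and 26.2 CPM of Tyrobp, with replicate 2 highest and replicate 5 lowest, as for Trem2. The CKO libraries held 19.1, 21.4, 26.9 and 19.8 CPM. Tyrobp fell by 2.06 ± 0.25 in TCKO against T (4.16-fold lower, adjusted p = 5.46e-05).

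Set against each other per length, adaptor and receptor gave ratios that overlapped between genotypes. Tyrobp stood at 586 ± 99.1 TPM in T and 73.98 ± 15.1 TPM in WT, and Trem2 at 172 ± 22.1 TPM in T and 22.3 ± 6.69 TPM in WT (SD, n = 4 each). The ratio of Tyrobp to Trem2 in TPM was 3.73 ± 0.253 in TCKO, 3.39 ± 0.236 in T, 3.44 ± 0.651 in CKO and 3.39 ± 0.369 in WT (SD, n = 4 each). The mean log2 ratio differed by 0.0057 in T against WT (exact two-sided permutation p = 0.971, adjusted over 4 comparisons 0.971) and by 0.14 in TCKO against T (exact permutation p = 0.0857, adjusted 0.343). It differed by 0.13 in TCKO against CKO (exact permutation p = 0.4, adjusted 0.8) and by 0.01 in CKO against WT (exact permutation p = 0.943, adjusted 0.971). With 70 arrangements of the libraries the smallest two-sided p is 0.0286.

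Syk and Plcg2, the kinase and the phospholipase that act after the adaptor, had far fewer reads. Syk (ENSMUSG00000021457, chromosome 13, 52583173 to 52648792, plus strand) had 175, 120, 204 and 111 reads in the T libraries, against 110, 77, 59 and 24 reads in the WT libraries. That is 5.57, 4.4, 6.53 and 3.47 CPM in T, against 3.55, 2.28, 2.12 and 0.847 CPM in WT. T replicate 5 was just below WT replicate 1, so the groups overlapped. Syk rose by 1.18 ± 0.37 in T against WT (2.26-fold, adjusted p = 0.0301), the smallest of the 6 rises. This call was lost without T replicate 2 (adjusted p = 0.0767), T replicate 4 (0.0827), WT replicate 2 (0.0576), WT replicate 4 (0.0611) or WT replicate 5 (0.0771), and in a fit of the 8 compared libraries alone. The TCKO libraries had 40, 102, 102 and 88 Syk reads (1.73, 3.23, 3.78 and 3.43 CPM) and the CKO libraries 55, 23, 38 and 58 (2.25, 0.991, 2.47 and 2.13 CPM). TCKO replicate 2 was the lowest of the TCKO libraries and lay below 3 of the 4 CKO libraries. In TCKO against T the log2 fold change of Syk was -0.71 ± 0.37 (95% interval -1.49 to 0.07, adjusted p = 0.225).

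Plcg2 (ENSMUSG00000034330, chromosome 8, 117498291 to 117635142, plus strand) encodes an enzyme that cleaves a membrane phosphoinositide into second messengers, of which 1 releases calcium. Its level was 7.99, 6.38, 6.46 and 5.68 CPM in the T libraries, against 1.36, 2.7, 2.66 and 1.84 CPM in the WT libraries. The groups did not overlap, and the gene rose by 1.63 ± 0.23 (3.09-fold, adjusted p = 0.0001). The TCKO libraries held 2.08, 3.14, 2.48 and 2.93 CPM and the CKO libraries 2.58, 2.33, 2.6 and 1.8 CPM, ranges that overlapped. Plcg2 fell by 1.31 ± 0.23 in TCKO against T (2.49-fold lower, adjusted p = 0.00118). Among the TCKO libraries replicate 2, the highest for Trem2 and Tyrobp, was the lowest for Plcg2. Per length, Plcg2 stood at 2.02 ± 0.283 TPM in T and 0.645 ± 0.191 TPM in WT (SD, n = 4 each). Syk stood at 1.27 ± 0.246 TPM in T and 0.571 ± 0.309 TPM in WT.

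Inpp5d (ENSMUSG00000026288, chromosome 1, 87620312 to 87720507, plus strand), the gene of the inhibitory phosphatase SHIP1, had 20.03, 18.4, 18.8 and 18.8 CPM in the T libraries, against 5.58, 6.85, 6.48 and 5.19 CPM in the WT libraries. The T libraries lay close together and far above the WT libraries. Inpp5d rose by 1.66 ± 0.16 in T against WT (3.15-fold, adjusted p = 2.59e-06). The TCKO libraries held 11.97, 8.74, 7.15 and 7.18 CPM of Inpp5d, all below every T library and above every CKO library, which held 6.1, 5.52, 5.66 and 5.77 CPM. It fell by 1.12 ± 0.16 in TCKO against T (2.17-fold lower, adjusted p = 0.000165). The gene of the inhibitor thus moved in the same direction as the genes of the receptor and the adaptor.

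Abi3 (ENSMUSG00000018381, chromosome 11, 95830074 to 95842476, minus strand), the actin regulator, had 44.1, 37.1, 37.3 and 35.8 CPM in the T libraries, against 8.33, 10.6, 10.2 and 9.04 CPM in the WT libraries. It rose by 2.01 ± 0.11 in T against WT (4.04-fold, adjusted p = 2.02e-08), with the smallest SE of the 7 genes. The TCKO libraries held 15.8, 14.2, 13.9 and 14.7 CPM and the CKO libraries 10.2, 8.71, 9.89 and 9.99 CPM. The TCKO libraries overlapped with those of no other genotype, and Abi3 fell by 1.4 ± 0.11 in TCKO against T (2.63-fold lower, adjusted p = 4.11e-06). Part of the locus is shared with Gngt2, a G protein subunit gene on the opposite strand that overlaps Abi3 over 5261 bases in GENCODE M21. Gngt2 rose by 1.93 ± 0.19 in T against WT and fell by 1.6 ± 0.19 in TCKO against T (adjusted p = 3.52e-06 and 5.1e-05). Use of strand in counting was not given in the sources used here, so the division of reads between Abi3 and Gngt2 is uncertain. Zfp652, a zinc finger gene that also overlaps Abi3 on the opposite strand, had a log2 fold change of 0.14 ± 0.1 in T against WT and did not pass (adjusted p = 0.319).

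Ptk2b (ENSMUSG00000059456, chromosome 14, 66153257 to 66281052, minus strand) differed from the other 6 genes in direction. At 131 ± 23.2 TPM in T and 178 ± 39.3 TPM in WT (SD, n = 4 each), it was far above Syk and Plcg2 per length in both genotypes. The T libraries had 199, 276, 349 and 351 CPM of Ptk2b, against 313, 507, 487 and 374 CPM in the WT libraries. The groups overlapped through WT replicate 1, and the log2 fold change was -0.52 ± 0.19 in T against WT (95% interval -0.93 to -0.11, adjusted p = 0.0619). Without the choroid-rich T replicate 4 and WT replicate 1 it was -0.7 and past the threshold. The threshold was also passed without T replicate 5 (adjusted p = 0.0385), without WT replicate 1 (0.0315) and with DESeq2.

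In TCKO the libraries held 594, 356, 469 and 482 CPM of Ptk2b, all above every T library, and the CKO libraries held 586, 476, 557 and 443 CPM. Ptk2b rose by 0.69 ± 0.19 in TCKO against T (1.62-fold, adjusted p = 0.0264). Single libraries decided this call, which was lost without T replicate 2 (adjusted p = 0.0931), T replicate 3 (0.0726), TCKO replicate 2 (0.0904) or TCKO replicate 5 (0.062), and in a fit of the 8 compared libraries alone. Some excitatory neuron genes moved beside it. Of 10 such genes, 3 fell, 0 rose and 7 did not pass in T against WT, where 11.2% of all genes fell. In TCKO against T, 4 rose, 0 fell and 6 did not pass, where 4.81% of all genes rose. The summed level of the 10 genes ran from 9141 to 12971 CPM in TCKO, 5602 to 9348 in T, 11033 to 12266 in CKO and 9233 to 11140 in WT. With each library scaled to its reads of these neuron genes, a scaling added after the levels of Ptk2b had been seen, the log2 fold change of Ptk2b was -0.05 ± 0.14 in T against WT (95% interval -0.35 to 0.25, adjusted p = 0.797). On the same scale it was 0.13 ± 0.14 in TCKO against T (95% interval -0.17 to 0.42, adjusted p = 0.467). Of all genes, 33.3% and 42% were called on this scale, with medians of 0.48 and -0.56.

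**Figure D2:**
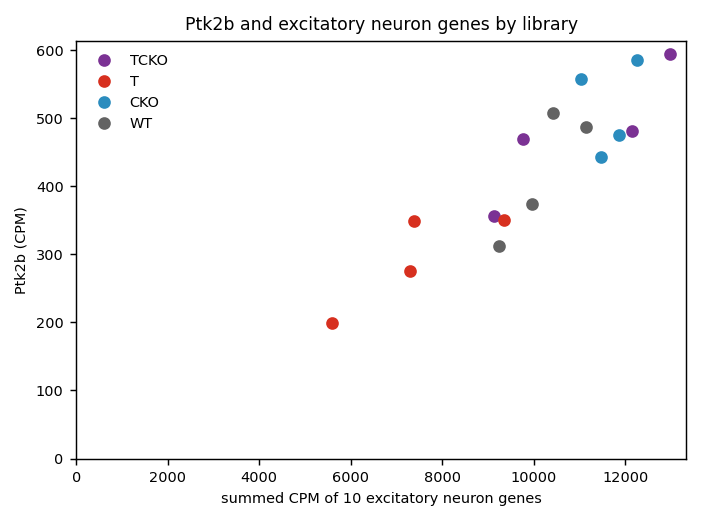
Ptk2b in CPM (vertical axis) against the summed CPM of 10 excitatory neuron genes (horizontal axis) in each of the 16 libraries, marked by genotype; the points share library depth and scaling. T replicate 2 is lowest on both axes, with 5602 CPM of neuron genes, and TCKO replicate 2 is highest on both, with 12971 CPM.

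**Figure D3:**
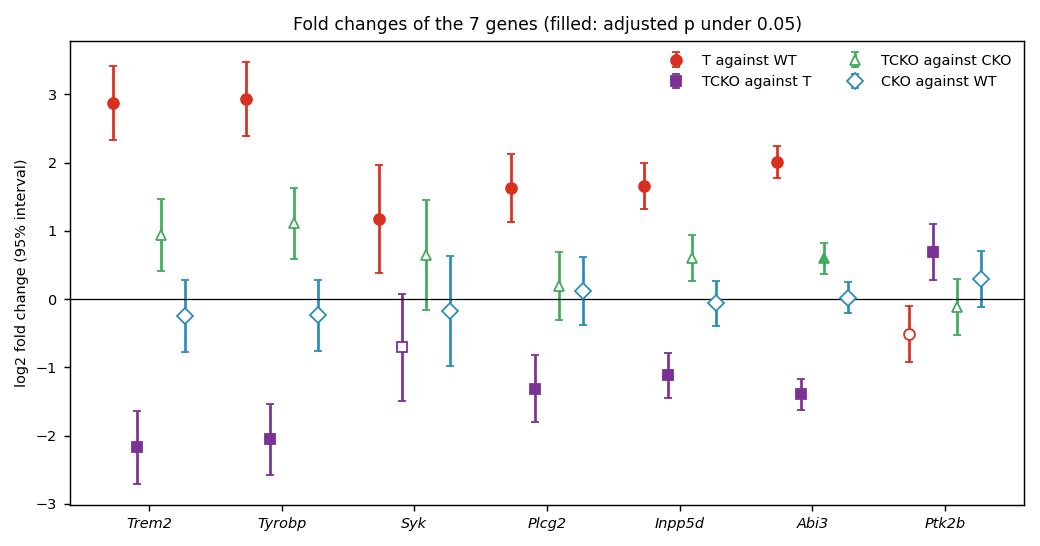
Log2 fold change with its 95% interval for each gene by comparison; filled symbols have an edgeR adjusted p under 0.05. In CKO against WT none is filled, and in TCKO against CKO only Abi3 is.

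Loss of Ch25h without the transgene left all 7 genes without a call. In CKO against WT, 0 of 7 passed with edgeR, which called 0.0108% of all genes, and 0 had an unadjusted p under 0.05. DESeq2, with 110 genes called, and limma voom, with 1 gene called, also called 0 of the 7. The log2 fold change of Trem2 was -0.24 (95% interval -0.77 to 0.28) and that of Tyrobp -0.24 (-0.76 to 0.28). The intervals were narrower for Abi3 (-0.21 to 0.25) and Inpp5d (-0.4 to 0.27). Plcg2 stood at 0.12 ± 0.24, Syk at -0.17 ± 0.38 and Ptk2b at 0.29 ± 0.19, and the smallest adjusted p among the 7 was 0.589, for Ptk2b.

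The tau transgene in mice without Ch25h was accompanied by 1 call. In TCKO against CKO, Abi3 rose by 0.59 ± 0.11 (adjusted p = 0.0265), where 0.35% of all genes rose. This call was lost without CKO replicate 1 (0.0799), CKO replicate 2 (0.0758), CKO replicate 4 (0.0809), TCKO replicate 2 (0.0566) or TCKO replicate 3 (0.0683). It was also lost with limma voom (0.0623) and with a replicate block (0.109). Scaled to the 12 homeostatic microglia genes Abi3 stood at 0.11 ± 0.18 (adjusted p = 0.651), while Tyrobp passed on that scale at 0.53 ± 0.17 (0.0424), where 0.399% of all genes were higher and the median was -0.46. Trem2 stood at 0.94 ± 0.25 (adjusted p = 0.0827), Tyrobp at 1.11 ± 0.25 (0.0534) and Inpp5d at 0.6 ± 0.16 (0.0816), and none of these passed. Every TCKO library was above every CKO library for Trem2, Inpp5d and Abi3, as for 5.32% of all genes. Tyrobp overlapped through CKO replicate 4. The summed level of 8 oligodendrocyte genes also did not overlap, at 13411 to 17678 CPM in TCKO and 5277 to 8843 in CKO. Of these genes 0 passed. The sum ran from 10096 to 22047 CPM in T and 3548.5 to 15606 in WT. In WT it was higher in replicates 2 and 4 than in replicates 1 and 5, as were Trem2 and Tyrobp. In TCKO it was highest in replicate 3, while Trem2 was highest in replicate 2. The part of oligodendrocyte content in these results was not tested. DESeq2 called Trem2, Tyrobp, Inpp5d and Abi3. Tyrobp passed without TCKO replicate 4 (0.036), TCKO replicate 5 (0.0106) or WT replicate 5 (0.0495), Inpp5d without TCKO replicate 4 (0.0437) and Trem2 without TCKO replicate 5 (0.028), by adjusted p. The log2 fold change of Plcg2 was 0.2 (95% interval -0.3 to 0.7), that of Syk 0.64 (-0.16 to 1.45) and that of Ptk2b -0.12 (-0.52 to 0.29).

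The effect of tau differed with Ch25h for 5 of the 7 genes relative to library totals, and for 2 of those 5 relative to the homeostatic microglia genes. The interaction, the log2 difference of TCKO from CKO minus that of T from WT, was -1.93 ± 0.35 for Trem2 (adjusted p = 0.00704), -1.82 ± 0.35 for Tyrobp (0.00917) and -1.42 ± 0.15 for Abi3 (0.000269). It was -1.05 ± 0.22 for Inpp5d (adjusted p = 0.0168) and -1.43 ± 0.33 for Plcg2 (0.0263), where 2.45% of all genes had a negative interaction past the threshold. The interaction of Syk was -0.54 (95% interval -1.66 to 0.59) and that of Ptk2b 0.4 (-0.18 to 0.98), and neither passed. The Plcg2 interaction was lost without CKO replicate 1 (0.0549), CKO replicate 2 (0.0524), CKO replicate 4 (0.0571), T replicate 2 (0.0664) or WT replicate 5 (0.0611). Without the choroid-rich T replicate 4 and WT replicate 1, the interactions of Plcg2 and Inpp5d no longer passed, while those of Trem2, Tyrobp and Abi3 did.

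The interaction was negative and past the threshold for 6 of 12 homeostatic microglia genes and 10 of 12 broader myeloid genes. Over all genes 2.45% had such an interaction. Scaled to the homeostatic genes, it was -1.11 ± 0.25 for Trem2 (adjusted p = 0.0021) and -0.98 ± 0.25 for Tyrobp (0.0036), where 1.22% of all genes had a negative and 52.6% a positive interaction past the threshold. On that scale Plcg2 (-0.5, adjusted p = 0.283), Inpp5d (-0.16, 0.581) and Abi3 (-0.47, 0.122) did not pass. Ptk2b passed there with a positive interaction of 1.32 ± 0.3 (adjusted p = 0.0022), beside a median of 0.99 over all genes. Scaled to the broader myeloid genes, Trem2 (-0.21, adjusted p = 0.555) and Tyrobp (-0.06, 0.866) no longer passed, and Syk (1.5, 0.036) and Ptk2b (2.29, 6.86e-05) passed with positive values. On that scale 81.4% of all genes had a positive and 0.248% a negative interaction past the threshold, with a median of 1.98. Ctss alone held a mean of 1097.5 of the 2257 CPM summed over the broader myeloid genes in T.

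By mean CPM the genotypes ordered, high to low, as T, TCKO, WT and CKO for Trem2, Tyrobp, Inpp5d and Syk, and as T, TCKO, CKO and WT for Plcg2 and Abi3. For Trem2 the means were 26.9 ± 11.6 CPM in TCKO, 121 ± 14.9 in T, 13.95 ± 0.717 in CKO and 16.5 ± 4.92 in WT (SD, n = 4 each). T differed from its neighbour TCKO for 5 of these 6 genes, and Syk was the exception. In TCKO against WT, Trem2 stood at 0.7 ± 0.25 (adjusted p = 0.208), Tyrobp at 0.88 ± 0.24 (0.134), Inpp5d at 0.54 ± 0.16 (0.142) and Syk at 0.47 ± 0.37 (0.589), none past the threshold. Abi3 rose by 0.62 ± 0.11 in TCKO against WT (adjusted p = 0.0255), where 0.183% of all genes rose. This call was lost without TCKO replicate 2 (0.0665), TCKO replicate 3 (0.0519), WT replicate 1 (0.111) or WT replicate 5 (0.11), and Tyrobp passed without TCKO replicate 5 (0.0458). The Abi3 call was also lost with limma voom (0.0502), in a fit of only the compared libraries (0.128), with a replicate block (0.146), without the choroid-rich libraries (0.141) and with scaling to the homeostatic microglia genes (0.478). DESeq2 called Tyrobp (0.0223) and Inpp5d (0.0452) as well as Abi3 in TCKO against WT, by adjusted p. Abi3 and Inpp5d were higher in every TCKO library than in every WT library, as were 3.14% of all genes. Ptk2b ordered as CKO, TCKO, WT and T, with means of 475 ± 97.5 CPM in TCKO, 294 ± 71.96 in T, 515 ± 66.9 in CKO and 420.3 ± 92.6 in WT (SD, n = 4 each), and no neighbouring pair in that order passed.

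Markers of microglia moved beside the 6 genes. Over all genes 13% rose and 11.2% fell in T against WT, and 4.81% rose and 8.05% fell in TCKO against T. Of 12 homeostatic microglia genes, 11 rose and 0 fell in T against WT, and 8 fell and 0 rose in TCKO against T. Their summed level ran from 699 to 1207 CPM in TCKO, 1541 to 1943 in T, 624 to 658 in CKO and 566 to 757 in WT. Of 12 broader myeloid genes, 12 rose in T against WT and 12 fell in TCKO against T. Their summed levels were 363 to 831 CPM in TCKO, 2027 to 2670 in T, 279 to 383 in CKO and 286 to 436 in WT. Both sums were higher in TCKO replicates 2 and 3 than in TCKO replicates 4 and 5, as were Trem2 and Tyrobp.

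Scaled to the reads of the 12 homeostatic microglia genes in place of the library total, Trem2 and Tyrobp still differed between genotypes, and Syk, Plcg2 and Inpp5d did not pass. On this scale 2.52% of all genes were higher and 79.7% lower in T against WT, with a median of -1.45. The log2 fold change was 1.48 ± 0.18 for Trem2 and 1.51 ± 0.18 for Tyrobp (adjusted p = 4.6e-07 and 2.69e-07), and 0.59 ± 0.18 for Abi3 (0.00589). Inpp5d stood at 0.23 ± 0.18 (95% interval -0.13 to 0.6), Plcg2 at 0.23 ± 0.28 (-0.35 to 0.81) and Syk at -0.27 ± 0.42 (-1.15 to 0.61). In TCKO against T the log2 fold change was -1.28 ± 0.18 for Trem2 and -1.15 ± 0.17 for Tyrobp (adjusted p = 1.62e-05 and 2.39e-05), where 2.56% of all genes were lower and 69.6% higher, with a median of 1.03. Abi3 was at -0.4 ± 0.18 (adjusted p = 0.0521), Inpp5d at -0.18 ± 0.18 (0.362), Plcg2 at -0.3 ± 0.28 (0.323) and Syk at 0.35 ± 0.42 (0.45). Cx3cr1, Olfml3 and Csf1r, in this list, were among the 5 profiles nearest to Inpp5d. This scale thus set Inpp5d partly against its nearest profiles.

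The scaled values depended on the marker set. Scaled to the 12 broader myeloid genes, Trem2 stood at 0.24 ± 0.24 and Tyrobp at 0.26 ± 0.23 in T against WT and neither passed, while Plcg2 (-1.01), Inpp5d (-1.02), Abi3 (-0.67) and Syk (-1.53) were lower. On that scale 0.733% of all genes were higher and 94.9% lower. The scale was a sum of reads, in which Ctss held a mean of 1097.5 of 2257 CPM in T and 151 of 358 CPM in WT. Ctss and Ly86, also in this list, had the profiles nearest to Tyrobp, so this scale set Tyrobp largely against its nearest profiles. In TCKO against T, Trem2 (-0.26) and Tyrobp (-0.14) again did not pass, and Plcg2 (0.78), Inpp5d (0.87), Abi3 (0.68) and Syk (1.45) were higher, where 90.5% of all genes were higher and 0.668% lower. Scaled to reads of Csf1r, a growth factor receptor of microglia, Trem2 (1.17) and Tyrobp (1.21) passed in T against WT, where 1.92% of all genes were higher, and Abi3 (0.29) did not.

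**Figure D4:**
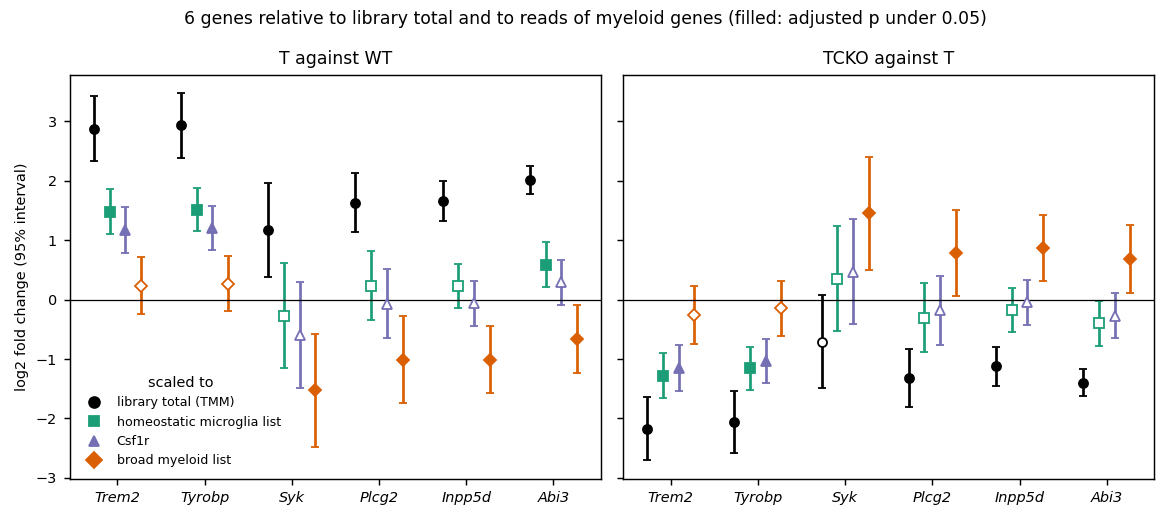
Log2 fold change with its 95% interval for the genes in T against WT and in TCKO against T, by what each library was scaled to (library total or marker reads); filled symbols have an edgeR adjusted p under 0.05. Trem2 in T against WT stands at 2.87 on the library total, 1.48 on homeostatic microglia reads and 0.24 on broader myeloid reads.

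Other leukocytes express parts of the same pathway, and markers of 4 such cell groups were read beside the 7 genes. Of 8 border macrophage genes, 1 rose in T against WT and 3 fell in TCKO against T, where 13% of all genes rose and 8.05% fell. They summed to 7.8 to 11.9 CPM in TCKO, 18.3 to 53.03 in T, 6.92 to 13.1 in CKO and 11.1 to 15.99 in WT. The highest T sum was that of the choroid-rich T replicate 4, and the other T libraries held 18.3 to 33.6 CPM. The choroid-rich WT replicate 1 had the lowest WT sum. Of 6 tested monocyte and neutrophil genes, 3 rose in T against WT and 2 fell in TCKO against T, with sums of 2.95 to 3.89 CPM in TCKO, 5.06 to 9.3 in T, 1.73 to 6.18 in CKO and 2.02 to 3 in WT. Of 9 tested T cell genes, 7 rose in T against WT and 6 fell in TCKO against T, with sums of 7.53 to 8.65 CPM in TCKO, 15.6 to 20.7 in T, 8 to 8.81 in CKO and 7.15 to 10.6 in WT. Of the B cell genes, Cd79a, Ms4a1, Pax5 and Cr2 averaged under 0.5 CPM in every genotype, and Ms4a1 had no read in CKO. Cd79b, a subunit of the B cell receptor, rose in T against WT (2.16 ± 0.34) and fell in TCKO against T (-1.41 ± 0.33), and Ighm did not pass. The B cell list summed to 62.4 to 98.4 CPM in TCKO, 30.3 to 187 in T, 34.7 to 85.2 in CKO and 9.57 to 88.8 in WT. The part of these cells in the results on the 7 genes was not tested.

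The closest relatives of the 7 genes moved in both directions. Of 12 paralogs 8 were tested, of which 3 rose and 2 fell in T against WT (median 0.06), where 13% of all genes rose and 11.2% fell. Hcst (DAP10), an adaptor related in function to Tyrobp, rose by 3.52 ± 0.62 in T against WT and fell by 2.31 ± 0.58 in TCKO against T (adjusted p = 0.000659 and 0.0141). Its reads were few, at 24, 16, 11 and 3 in the TCKO libraries, 112, 73, 80 and 48 in the T libraries, 10, 7, 4 and 2 in the CKO libraries and 11, 9, 6 and 1 in the WT libraries. Treml2, a receptor gene of the same family as Trem2, rose by 4.58 ± 0.64 and fell by 2.6 ± 0.56 in the same comparisons, with 8, 18, 5 and 7 reads in TCKO, 69, 76, 55 and 57 in T, 9, 4, 1 and 8 in CKO and 0, 1, 4 and 5 in WT. Inppl1, which encodes SHIP2, a widely expressed relative of SHIP1, rose by 1.19 ± 0.21 in T against WT and stood at -0.47 ± 0.21 in TCKO against T (adjusted p = 0.147). The relatives of Abi3 fell in T against WT, Abi1 by 0.5 ± 0.16 and Abi2 by 0.51 ± 0.13 (adjusted p = 0.028 and 0.00979). Plcg1 (0.15 ± 0.13), Ptk2, which encodes focal adhesion kinase (-0.03 ± 0.11), and the T cell kinase gene Zap70 (-0.67 ± 0.3) did not pass in T against WT. Trem1, Trem3, Treml1 and Treml4 did not pass the filter on low counts.

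Of 9 genes of TREM2 ligands, shedding and intramembrane cleavage, 4 rose and 0 fell in T against WT (median 0.3). Over all genes 13% rose and 11.2% fell in that comparison, and 4.81% rose and 8.05% fell in TCKO against T. Apoe and Clu, apolipoproteins that bind TREM2, rose by 1.81 ± 0.18 and 1.12 ± 0.11 in T against WT and fell by 1.36 ± 0.18 and 0.86 ± 0.11 in TCKO against T. Astrocytes express both genes, and of 8 astrocyte marker genes 4 rose in T against WT and 4 fell in TCKO against T. The astrocyte markers summed to 5614 to 8717 CPM in TCKO, 11126 to 14694 in T, 4941 to 5507 in CKO and 5789 to 6471 in WT, and their part in the Apoe and Clu values was not tested. Adam17, a protease that can release the TREM2 ectodomain, rose by 0.82 ± 0.15, and Adam10, another such protease, was at 0.21 ± 0.12 and did not pass. Of 7 tested receptors that signal through TYROBP, 7 rose in T against WT and 6 fell in TCKO against T, with medians of 2.2 and -1.43. Among them were Cd300lb (5.39 ± 0.96), the C-type lectin gene Clec5a (2.2 ± 0.25) and Siglech (0.7 ± 0.14), of which Siglech stood at -0.37 in TCKO against T and did not pass. Csf1r, Itgam and Siglech are also in the homeostatic microglia list, and Itgb2 is in the broader myeloid list.

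Among kinases, phosphatases and adaptors that act on tyrosine motifs, 12 of 22 rose and 0 fell in T against WT (median 1.42), and 10 fell and 0 rose in TCKO against T (median -0.8). The Src-family kinase genes Lyn (1.83 ± 0.19) and Fgr (5.82 ± 0.69) rose in T against WT, as did Ptpn6 (2.63 ± 0.29), which encodes the inhibitory phosphatase SHP-1. Src (0.28), Grb2 (-0.15), Sos1 (0.11) and Cbl (0.02), which most cells express, did not pass. Of 17 PI3K and phosphoinositide genes, 3 rose and 3 fell in T against WT (median 0.16), where 13% of all genes rose and 11.2% fell. Pik3ap1 (2.7 ± 0.23), Pik3cg (1.51 ± 0.3) and Pik3r5 (1.01 ± 0.34), subunits or adaptors of the kinase in leukocytes, rose, and the phosphatase genes Synj1 (-0.66) and Inpp4a (-0.4) and the kinase gene Mtor (-0.28) fell. Downstream of phospholipase C gamma, 6 of 19 genes rose and 1 fell in T against WT (median 0.49). The calcium release channel gene Itpr2 (1.25 ± 0.14) and the transcription factor gene Nfatc1 (1.22 ± 0.2) rose, while the protein kinase C gene Prkcb (-0.41 ± 0.14) fell. In TCKO against T, 3 of these 19 rose and 3 fell, where 4.81% of all genes rose and 8.05% fell.

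Of 22 Vav, Rac and WAVE genes, the actin regulators with which ABI proteins act, 9 rose and 2 fell in T against WT (median 0.16), and 2 rose and 7 fell in TCKO against T. Over all genes 13% rose and 11.2% fell in T against WT, and 4.81% rose and 8.05% fell in TCKO against T. Rac2 (2.66 ± 0.25), Nckap1l (1.91 ± 0.21) and Vav1 (2.43 ± 0.28), known from blood cells, rose in T against WT, as did Arpc1b (2.29 ± 0.21), a subunit of the actin-nucleating complex. Wasf1 (-0.59 ± 0.15) and Cyfip2 (-0.34 ± 0.11), WAVE complex genes active in neurons, fell in T against WT and rose in TCKO against T (0.55 and 0.42). Of 26 other genes at Alzheimer risk loci that microglia express, 17 rose and 0 fell in T against WT (median 1.01), and 15 fell and 0 rose in TCKO against T (median -0.76). Spi1, the gene of PU.1, rose by 3.77 ± 0.33 in T against WT, as did the lysosomal genes Grn (1.74 ± 0.14) and Ctsh (2.41 ± 0.23) and Ms4a6d (2.97 ± 0.31). Sorl1 (-0.06), Abca7 (0.2), Mef2c (0.18) and Picalm (0.35) did not pass. In TCKO against CKO no pathway list had more than 1 call.

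**Figure D5:**
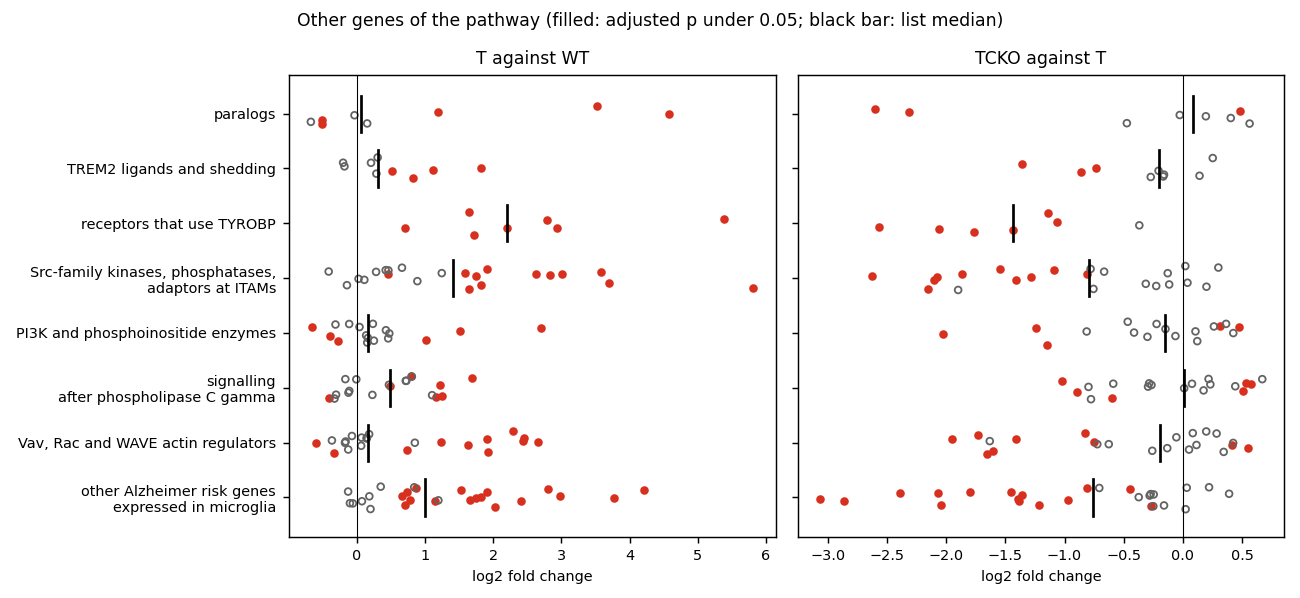
Log2 fold change of each tested gene of 8 pathway lists in T against WT and in TCKO against T; filled points have an edgeR adjusted p under 0.05, and the bar is the median of the list. The receptors that use TYROBP have medians of 2.2 and -1.43, and the PI3K list medians of 0.16 and -0.15.

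Genes with the most similar profile were found by the root mean square difference between log2 CPM values, each gene centred on its own mean, over the 16 libraries and 13182 genes. Trem2 was closest to Ly86 (0.124 log2 units), C1qb (0.15), Tyrobp (0.154), Fcgr1 (0.172) and Cd300c2 (0.182). Ly86 stood at 44.5 ± 18.7 CPM in TCKO, 209 ± 36.6 in T, 21.5 ± 2.33 in CKO and 25.9 ± 6.33 in WT (SD, n = 4 each). Tyrobp was closest to Ly86 (0.0939), Ctss (0.105), C1qb (0.123), Trem2 (0.154) and Cd14 (0.156). The 5 closest to Inpp5d were Cx3cr1 (0.109), Olfml3 (0.109), Tgfbr1 (0.12), Csf1r (0.13) and Lgmn (0.139). Cx3cr1, Olfml3 and Csf1r are in the homeostatic microglia list, and Ly86 and Ctss in the broader myeloid list. Abi3 was closest to Cnn3 (0.146), Zfp36 (0.181), Inpp5d (0.192), Bin2 (0.195) and Lpxn (0.196), and Plcg2 to Vsir (0.159), Sat1 (0.178), Sting1 (0.201), Tgm2 (0.202) and Eif4ebp1 (0.215). Syk had no gene nearer than Lmo2 (0.309), followed by Slc39a13, Akip1, Crb2 and Slc4a2 (up to 0.33). Ptk2b was closest to Nrn1 (0.107), Add2 (0.109), Brinp1 (0.116), Faah (0.124) and Klf13 (0.125), and its difference from Trem2 was 1.56. Nrn1, which encodes neuritin, a neuronal membrane protein, stood at 294 ± 72.1 CPM in TCKO, 189 ± 49.6 in T, 319 ± 54.8 in CKO and 285 ± 62.2 in WT (SD, n = 4 each).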

How the data were processed

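Estimated counts, which need not be whole, per Ensembl gene were deposited for oligo-dT SMARTer libraries. Deposited tables of single samples add TPM and an effective length, per the file headers. The submitters' processing notes name STAR 2.5.1a, featureCounts 1.4.6-p5 and GRCm38 without roles, and the annotation used for counting is unknown here. The 55774 lines of the joint table held 55487 genes after repeats were dropped, and its values equalled those of the single-sample tables within 0.01 reads. Counts were rounded and fitted with edgeR 4.0.16 in R 4.3.3 (TMM, filterByExpr, quasi-likelihood F-tests, a mean per genotype over 16 libraries, Benjamini-Hochberg threshold 0.05), a step tested on simulated data. SE is the log2 fold change over the root of F. The Tyrobp to Trem2 ratio used an exact permutation test in scipy 1.17.1. Gene positions are from GENCODE M21.

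The members, lists, tests and motifs were chosen with earlier results of these data known. Named were the 7 genes, their paralogs, genes of each list by p in T against WT together with those moving against their list, and the 5 nearest profiles (log2 of CPM plus 0.5, mean of at least 1 CPM, no unnamed models, pseudogenes, ribosomal or mitochondrial genes). Genes named as not passing, and some examples, were chosen after their values were seen. Alternatives were DESeq2 1.42.0, limma 3.58.1 (voom, and log2 of TPM plus 0.1), other normalizations, no filter, only the compared libraries, a replicate block, each library left out, the choroid-rich libraries left out, and scaling to microglia or neuron reads, the last added after levels were seen. Same-numbered T and WT libraries deviated together from their group means (correlations across genes of 0.129 to 0.373 in 3 pairs). Differently numbered libraries were not compared, so this does not show that the numbers pair libraries. In each other comparison at least 1 pair was below 0.1, though 1 pair of CKO against WT reached 0.358. The fits reported here used no pairing.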

Additional observations from a re-analysis of the deposited data

Results flagged for a closer look

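The effect of the tau transgene differed between mice without and with Ch25h for 5 of the 7 genes, by the edgeR test of the difference itself. On the log2 scale the effect without Ch25h minus that with Ch25h was -1.93 for Trem2 (adjusted p = 0.00704), -1.82 for Tyrobp (0.00917), -1.43 for Plcg2 (0.0263), -1.05 for Inpp5d (0.0168) and -1.42 for Abi3 (0.000269). Over all genes 2.45% had a negative interaction past the threshold. Without the choroid-rich libraries, the interactions of Plcg2 and Inpp5d did not pass. Relative to the reads of the homeostatic microglia genes, the interactions of Plcg2 (-0.50, adjusted p = 0.283), Inpp5d (-0.16, 0.581) and Abi3 (-0.47, 0.122) did not pass. Those of Trem2 (-1.11, 0.0021) and Tyrobp (-0.98, 0.0036) did, and Ptk2b passed with a positive value (1.32, 0.0022). On that scale 1.22% of all genes had a negative and 52.6% a positive interaction past the threshold, with a median of 0.99. Relative to the broader myeloid reads, Trem2 (-0.21, adjusted p = 0.555) and Tyrobp (-0.06, 0.866) did not pass.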

How the results depend on the processing

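The fits reported above called 4490 of all genes and 6 of the 7 in T against WT, 2388 of all genes and 6 of the 7 in TCKO against T, 100 of all genes and 1 of the 7 in TCKO against CKO, 2 of all genes and 0 of the 7 in CKO against WT, 56 of all genes and 1 of the 7 in TCKO against WT and 584 of all genes and 5 of the 7 in the interaction. Under limma on log2 TPM, counts that moved by over 1.5 times were 45 genes in TCKO against CKO, 1 gene in CKO against WT and 91 genes in TCKO against WT. Under DESeq2, counts that moved by over 1.5 times were 765 genes and 4 of the 7 in TCKO against CKO, 110 genes in CKO against WT, 495 genes and 3 of the 7 in TCKO against WT and 1250 genes in the interaction. Under limma voom, counts that moved by over 1.5 times were 59 genes and 0 of the 7 in TCKO against CKO, 1 gene in CKO against WT and 25 genes and 0 of the 7 in TCKO against WT. Under no filter on low counts, counts that moved by over 1.5 times were 252 genes and 3 of the 7 in TCKO against CKO and 100 genes in TCKO against WT. Under a fit of only the compared libraries, counts that moved by over 1.5 times were 1354 genes in TCKO against T, 301 genes in TCKO against CKO, 1 gene in CKO against WT and 16 genes and 0 of the 7 in TCKO against WT. Under a replicate block, counts that moved by over 1.5 times were 5 genes and 0 of the 7 in TCKO against CKO, 0 genes in CKO against WT and 3 genes and 0 of the 7 in TCKO against WT. Under scaling to homeostatic microglia reads, counts that moved by over 1.5 times were 15266 genes in T against WT, 13397 genes and 3 of the 7 in TCKO against T, 3458 genes in TCKO against CKO, 1 gene in CKO against WT, 3138 genes and 0 of the 7 in TCKO against WT and 9998 genes and 3 of the 7 in the interaction (Trem2, Tyrobp and Ptk2b). Under the choroid-rich libraries left out, counts that moved by over 1.5 times were 2696 genes in T against WT, 1591 genes in TCKO against T, 8 genes in CKO against WT, 12 genes and 0 of the 7 in TCKO against WT and 378 genes and 3 of the 7 in the interaction. The log2 sign turned with scaling to homeostatic microglia reads for Syk -0.27 in T against WT, and Syk 0.35 in TCKO against T, and Plcg2 -0.27 in TCKO against CKO, and Plcg2 -0.072 and Ptk2b -0.24 in TCKO against WT, and Syk 0.50 in the interaction. The log2 sign turned with limma on log2 TPM for Syk 0.0028 and Inpp5d 0.11 in CKO against WT. The log2 sign turned with the choroid-rich libraries left out for Syk 0.13, Plcg2 -0.072 and Abi3 -0.061 in CKO against WT. Against the values scaled to homeostatic microglia reads, the log2 sign turned with scaling to Csf1r reads for Plcg2 -0.068 and Inpp5d -0.066 in T against WT, and Abi3 -0.027 in CKO against WT, and Syk -0.12 and Inpp5d -0.11 in TCKO against WT, and Inpp5d 0.069 in the interaction. Against the values scaled to homeostatic microglia reads, the log2 sign turned with scaling to broader myeloid reads for Plcg2 -1.01, Inpp5d -1.02 and Abi3 -0.67 in T against WT, and Plcg2 0.78, Inpp5d 0.87 and Abi3 0.68 in TCKO against T, and Syk -0.024, Inpp5d -0.23 and Abi3 -0.16 in TCKO against CKO, and Inpp5d 0.085 in CKO against WT, and Trem2 -0.030, Syk -0.078 and Inpp5d -0.15 in TCKO against WT, and Plcg2 0.49, Inpp5d 0.78 and Abi3 0.51 in the interaction. In CPM the Tyrobp to Trem2 log2 ratio differed by -0.025 in CKO against WT. Against the values scaled to library totals, the log2 sign also turned with scaling to Csf1r reads for Syk -0.59 in T against WT, and Syk 0.47 in TCKO against T, and Plcg2 -0.34 in TCKO against CKO, and Plcg2 -0.25 and Ptk2b -0.40 in TCKO against WT, and Syk 0.74 in the interaction. Against the values scaled to library totals, the log2 sign also turned with scaling to broader myeloid reads for Syk -1.53 in T against WT, and Syk 1.45 in TCKO against T, and Plcg2 -0.52 in TCKO against CKO, and Plcg2 -0.23 and Ptk2b -0.40 in TCKO against WT, and Syk 1.5 in the interaction. With each library left out in turn the calls ran over 5 to 7 of the 7 and 2934 to 5128 genes in T against WT, 5 to 6 of the 7 and 1294 to 3278 genes in TCKO against T, 0 to 3 of the 7 and 11 to 266 genes in TCKO against CKO, 0 to 0 of the 7 and 0 to 7 genes in CKO against WT, 0 to 2 of the 7 and 6 to 67 genes in TCKO against WT and 4 to 5 of the 7 and 298 to 1266 genes in the interaction. The log2 difference of the Tyrobp to Trem2 ratio then ran from -0.041 to 0.066 in T against WT, 0.088 to 0.17 in TCKO against T, 0.043 to 0.25 in TCKO against CKO and -0.11 to 0.097 in CKO against WT. The sign of the log2 fold change turned without 1 library for ranges of -0.24 to 0.013 for Ptk2b in TCKO against CKO, -0.038 to 0.078 for Abi3 in CKO against WT, -0.44 to 0.15 for Syk in CKO against WT, -0.050 to 0.25 for Plcg2 in CKO against WT and -0.13 to 0.0028 for Inpp5d in CKO against WT. Whether replicate numbers pair libraries was not settled by the check above. The replicate block changed no call of the 7 in T against WT, TCKO against T, CKO against WT or the interaction. It ended the Abi3 calls in TCKO against CKO (0.59) and in TCKO against WT (0.62). The cause of these shifts was not tested. Syk, with 24 to 110 reads in the WT libraries, had the widest interval of the 7 genes in each comparison. Plcg2, with 42 to 91 reads there, had a narrower one, and the reason was not tested. With size factors of the RLE method and with upper-quartile factors, each result recomputed kept its direction and its side of the threshold, and each count stayed within 1.5 times. Scaling to excitatory neuron reads was read for Ptk2b only.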
